A study of Mus musculus with 9 samples.

Results

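The 7 genes Hmgcs1, Idi1, Fdft1, Sqle, Lss, Insig1 and Srebf2 were taken by symbol from a gene table of 17511 rows that compared mouse colon epithelial cells labelled DKO with cells labelled Wt. Each symbol matched 1 row, so all 7 genes were measured, and the peaks of Cdx2 ChIP-seq and of ATAC-seq, which marks open chromatin, were collected at their loci. The first 5 genes code for enzymes of cholesterol synthesis and the other two for regulators of it. None of the 7 codes for an uptake receptor, so uptake genes are described from a separate list. All 9 libraries came from mice carrying Cdx1-/- and Cdx2f/f alleles. Those labelled DKO were also tagged vill (+), and those labelled Wt were tagged vill (-). The Wt animals are therefore Cdx1 null by their strain label. RNA-seq and ATAC-seq each had 2 DKO and 2 Wt libraries from mice given tamoxifen for 6 days, whereas the single Cdx2 ChIP-seq library was tagged vill (-) and untreated, although its protocol text also names the tamoxifen. Ages are not stated in the sources used here, nor is it said that replicates were separate animals, so each p-value reflects the spread between these libraries alone, which may be technical.

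Cholesterol is built from acetyl-CoA through mevalonate, isoprenoid units and squalene, and squalene is then closed into lanosterol, the first sterol. The pathway is governed by SREBP-2, the product of Srebf2, a transcription factor held in the endoplasmic reticulum by Scap and the Insig proteins while sterols are plentiful. When sterols fall, it is cut free by the proteases Mbtps1 and Mbtps2 and switches on the synthesis genes, Insig1 and its own gene. In the gut, epithelial cells both make cholesterol and absorb it from the lumen.

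The RNA libraries held 16403301 to 25494309 estimated reads. Cdx2 was not called changed per the authors' deposited table (a log2 change of -0.27, SE 0.21, BH-adjusted p = 0.301), and Cdx1 was (-1.06, SE 0.23, BH-adjusted p = 2.08e-05). Their means over all RNA libraries were 9263 and 2595 normalized counts, so Cdx1 RNA was counted although both groups are labelled Cdx1-/-. Totals per gene would not show a missing exon, so these values leave the genotype unchecked, and group names follow the labels. Cells had been freed from colon tissue with EDTA to enrich epithelium. Of 8 epithelial markers, all measured, 2 were higher and 2 lower at a median log2 fold change of -0.21 per the authors' deposited table. Markers of stroma, muscle and endothelium were called lower in 16 of 16 cases per the authors' deposited table, with a median of -5.20, a range of -9.06 to -1.47 and none higher. Of 12 immune markers, 3 were higher per the authors' deposited table and 4 lower, and enteric glial and neuronal markers were lower in 3 of 5. These shifts stand beside every RNA result here, and their part in the results was not tested. In bulk samples, fewer cells of a type and less RNA per cell cannot be told apart.

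Of the 7 genes, 5 rose in the libraries labelled DKO and none fell. Insig1 rose most, followed by Hmgcs1, Lss, Sqle and Idi1, while Fdft1 and Srebf2 did not pass the threshold, a Benjamini-Hochberg (BH) adjusted p under 0.05 over all rows. The median log2 fold change of the 7 was 0.78 per the authors' deposited table, where the median of all rows was -0.02. Over the whole of the authors' deposited table, 18.5% of the 17511 rows were called higher and 18.3% lower at that threshold. The genes were chosen with results of these data known, so their count is a description. With p readjusted over rows with a mean of at least 50 the count was again 5 (25.5% of rows higher, 20.2% lower), at a threshold of 0.01 it was 4 (13.5% and 13.0%), and with a 2-fold minimum it was 2 (11.0% and 13.2%), per the authors' deposited table. No file used here pairs transcript identifiers with genes, so levels of a gene in each library are not given, and overlap between the libraries of the groups could not be read.

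**Figure D1:**
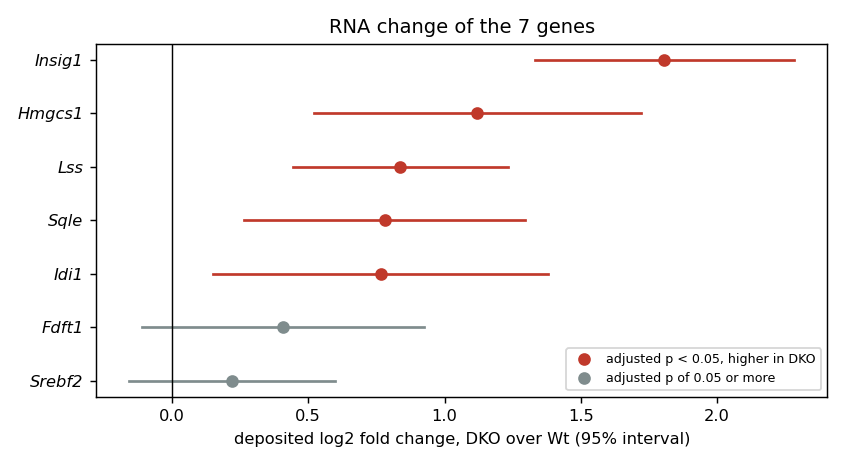
Deposited log2 fold change of each of the 7 genes (x axis, DKO over Wt), with the gene on the y axis; lines are 95% intervals made from the deposited SE, red points passed an adjusted p of 0.05 and grey points did not. Insig1 lies farthest to the right at 1.81, and the intervals of Fdft1 and Srebf2 include 0.

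Hmgcs1 codes for the cytosolic synthase that condenses acetyl units into HMG-CoA, an early precursor in the pathway. Its mean was 5742 normalized counts per the authors' deposited table, with a log2 fold change of 1.12 (SE 0.31, BH-adjusted p = 0.000660), or 2.17-fold higher in DKO. The 95% interval made from the deposited SE ran from 0.52 to 1.72. That change stood at the 90.1st percentile of all log2 fold changes per the authors' deposited table. Idi1 codes for the isomerase that balances the pair of activated isoprene units from which longer chains are built. In the authors' deposited table it had a mean of 2187 and a log2 fold change of 0.77 (SE 0.31, BH-adjusted p = 0.0290), 1.70-fold higher, with an interval of 0.15 to 1.38. Idi1 had the largest adjusted p of the 5 genes that rose, and its call ended at a threshold of 0.01. It has a paralogue, Idi2, on the same chromosome, and similar reads could be split between them. No row of the authors' deposited table carried the symbol Idi2.

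The next step, from farnesyl units to squalene, belongs to Fdft1, squalene synthase. Its log2 fold change per the authors' deposited table was 0.41 (SE 0.26, BH-adjusted p = 0.205) at a mean of 2888, and its interval of -0.11 to 0.92 includes no change as well as rises of the size seen in Idi1 or Sqle. The RefSeq span of Fdft1 overlaps that of Ctsb, a lysosomal protease gene, and reads from the shared stretch could not be assigned by strand from what is stated. Ctsb was not called either per the authors' deposited table (0.29, SE 0.18, BH-adjusted p = 0.188). Sqle codes for squalene epoxidase, the first oxygen-using step, and had a mean of 2570 and a log2 fold change of 0.78 (SE 0.26, BH-adjusted p = 0.00776) per the authors' deposited table. That is 1.72-fold higher in DKO, with an interval of 0.26 to 1.3. Lss codes for lanosterol synthase, which closes the ring system. In the authors' deposited table Lss had a mean of 1193 and a log2 fold change of 0.84 (SE 0.20, BH-adjusted p = 0.000146), 1.79-fold higher, with an interval of 0.44 to 1.23. The non-coding gene 4930483K19Rik overlaps the span of Lss, with the same limit on assigning reads.

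Insig1 codes for a membrane protein that retains the SREBP and Scap complex when sterols are high. Its mean was 2580 per the authors' deposited table, with a log2 fold change of 1.81 (SE 0.24, BH-adjusted p = 6.98e-13), 3.50-fold higher in DKO. The interval ran from 1.33 to 2.28, and the value stood at the 95.6th percentile of the authors' deposited table. The RefSeq span of Insig1 lies inside that of the non-coding gene Gm35223. Srebf2, which codes for SREBP-2, had a mean of 5768 and a log2 fold change of 0.22 (SE 0.19, BH-adjusted p = 0.386) per the authors' deposited table. Its interval of -0.16 to 0.60 lies wholly below that of Insig1. Of the 21 pairs among the 7 genes, 17 had overlapping intervals, and the 4 that did not all set Insig1 against another gene (Fdft1, Sqle, Lss or Srebf2). The interval of Insig1 overlapped those of Hmgcs1 and Idi1, so its first place rests on the estimate alone. The order of the remaining genes is not resolved by their errors either. Differences between genes were not tested, since their estimates come from the same libraries.

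The other genes of the pathway were read from lists of synthesis, regulation and uptake. Of the 16 other synthesis genes described, 4 were called higher per the authors' deposited table and 3 lower, with a median log2 fold change of 0.17. The shares over all rows were 18.5% higher and 18.3% lower. Among rows with a mean of at least 50, which all 16 had, they were 25.5% and 20.2% (p readjusted). Acat2, the thiolase of the first step, and Ggps1, which lengthens isoprenoid chains on a side branch, were called higher per the authors' deposited table, at 0.88 (SE 0.26) and 1.08 (SE 0.30). On the route from the first step to lanosterol, without Ggps1, 5 of the 10 genes described were called higher and 0 lower per the authors' deposited table. Of these 5, 4 are among the 7 genes described above, and with the 7 left out the count was 1 of 5 (Acat2), at a median of 0.06 per the authors' deposited table. Past lanosterol, 2 of 10 were higher and 3 lower per the authors' deposited table. The higher ones were Hsd17b7, a sterol ketoreductase, at 2.07 (SE 0.35) and Lbr, a lamin receptor that also reduces sterols, at 1.76 (SE 0.21) per the authors' deposited table. Tm7sf2, which catalyses the same sterol reduction as Lbr, fell by 0.72 on the log2 scale (SE 0.30, BH-adjusted p = 0.0307) per the authors' deposited table. The late enzymes Ebp and Dhcr7 were at -0.84 (SE 0.19) and -0.73 (SE 0.28) per the authors' deposited table and were also called lower. Thus the late steps were called in both directions, in small counts that were not tested against those shares. Whether the late steps differ from the early steps was not tested.

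Of the 7 other regulators described, 2 were called higher per the authors' deposited table and 0 lower. The shares over all rows were 18.5% and 18.3%. Mbtps2, the protease that makes the final cut in SREBP, was at 1.49 (SE 0.37, BH-adjusted p = 0.000116) per the authors' deposited table. Rnf139, a ubiquitin ligase of the endoplasmic reticulum, was at 0.91 (SE 0.26) per the authors' deposited table. With Insig1 and Srebf2 added, Insig1 had the largest change of these 9 regulators per the authors' deposited table. The interval of Mbtps2 (0.76 to 2.21) overlapped that of Insig1. Insig2, the partner of Insig1, was not called per the authors' deposited table (0.20, SE 0.30, BH-adjusted p = 0.625). Srebf1, the sister gene of Srebf2, was not called either per the authors' deposited table (0.50, SE 0.29, BH-adjusted p = 0.139). Insig2 and Srebf1 were named after their values were seen.

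Uptake and sterol transport genes moved in both directions, 4 of 12 higher and 4 lower per the authors' deposited table, with a median of -0.03. The shares over all rows were 18.5% higher and 18.3% lower. The higher genes were the receptors Lrp8 at 3.33 (SE 0.44), Vldlr at 3.22 (SE 0.38) and Scarb1 at 1.92 (SE 0.28), with Stard4 at 0.53 (SE 0.21), per the authors' deposited table. The lower genes per the authors' deposited table were Lrp1 at -2.40 (SE 0.21), Npc1 at -0.67 (SE 0.27), Lipa at -0.58 (SE 0.25) and Npc2 at -0.48 (SE 0.17). Npc1, Npc2 and Lipa free cholesterol from the lysosome, and Lrp1 is a broad endocytic receptor also found in stromal cells, whose markers fell as given above. The part of cell content in the change of Lrp1, or of any other gene here, was not tested. In all, 15 of the 42 genes of these lists were higher and 7 lower per the authors' deposited table. With the 7 genes described above left out, 10 of the other 35 were higher and 7 lower per the authors' deposited table. All 42 had a mean of at least 50, and among rows with such a mean 25.5% were higher and 20.2% lower (p readjusted). With a threshold of 0.01 the lower genes of the 42 numbered 2, where 13.0% of all rows were lower.

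**Figure D2:**
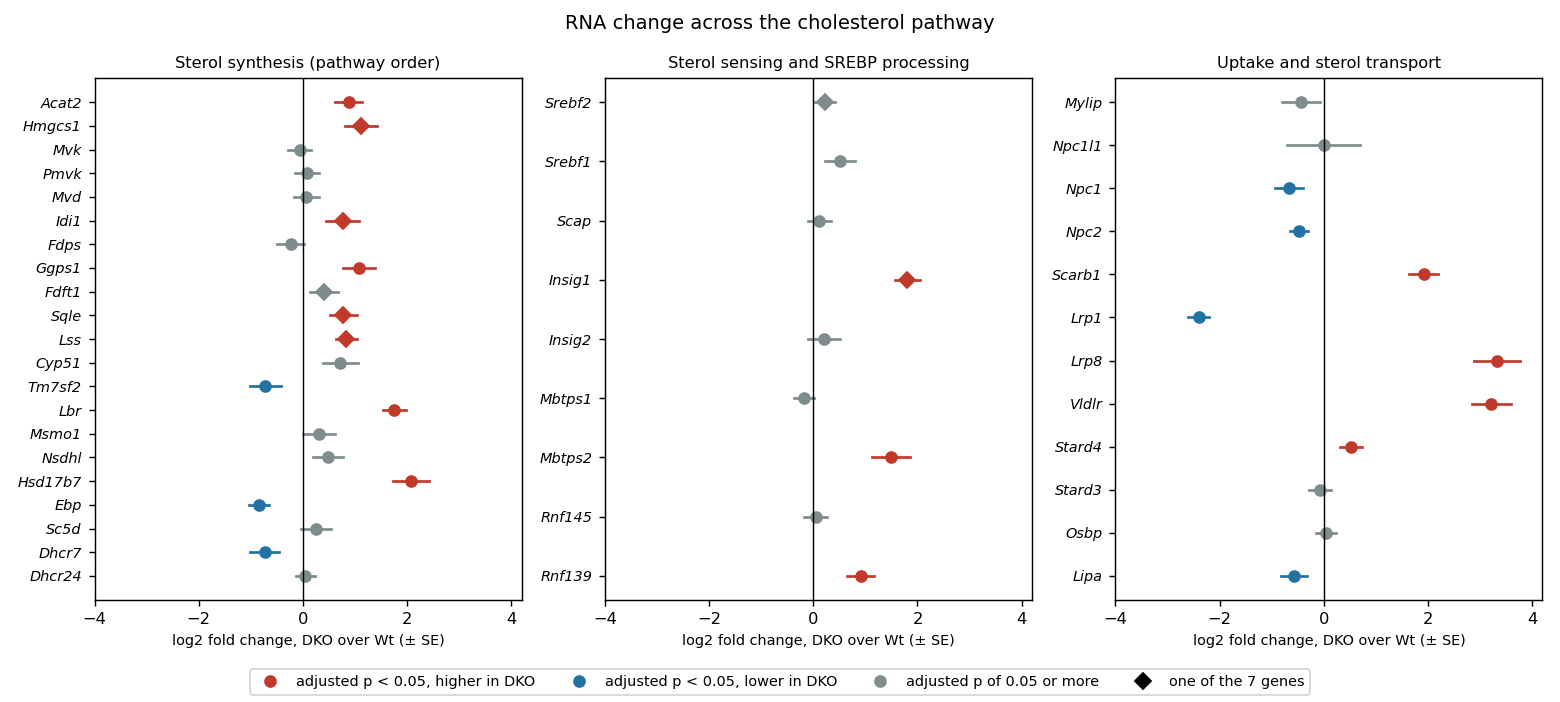
Deposited log2 fold change (x axis, DKO over Wt, points with SE) for genes of sterol synthesis in pathway order, of sterol sensing and of uptake; red and blue points passed an adjusted p of 0.05, grey points did not, and diamonds mark the 7 genes. The genes from Acat2 to Lss hold no blue point, while the uptake panel spreads from Lrp1 at -2.40 to Lrp8 at 3.33.

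The libraries of open chromatin differed widely before any locus was considered. DKO replicate 1 listed 40101 ATAC peaks and replicate 2 listed 23961, against 48163 in Wt replicate 1 and 53943 in Wt replicate 2. Overlapping peaks were joined into regions, and a gene start was counted as open in a library when its region held a peak of that library. Of 12141 measured genes with a RefSeq start, 72.3% and 73.5% were open in the Wt libraries, but 23.3% in DKO replicate 1 and 38.7% in DKO replicate 2. DKO replicate 1 thus had more peaks than replicate 2 and fewer of them at gene starts. Fold enrichments are the authors' values for each peak over local background, and each percentile is a rank within its own list. The median fold of a list ran from 3.77 in DKO replicate 2 to 4.95 in Wt replicate 1. Values of several lists are printed side by side below, but their levels are not comparable between lists.

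At the starts of 6 of the 7 genes a region was open in both Wt libraries and in at least 1 DKO library. At Hmgcs1, Idi1 and Sqle the start was open in all 4 libraries, and at Lss, Insig1 and Srebf2 it was open in both Wt libraries and DKO replicate 2 but not in DKO replicate 1. The calls in DKO replicate 1 rested on small peaks. At a -log10 q of at least 5 those of Hmgcs1 (3.79) and Idi1 (3.40) ended and that of Sqle (5.77) passed, and none of the 3 peaks covered 50% of its region (45.4%, 46.7% and 43.6%). By the same rules the DKO replicate 2 peak of Srebf2 failed the q (3.79) and that of Insig1 the coverage (34.1%). For Sqle and Fdft1 no start was given in the reference used, so both ends of the gene span were searched. At Sqle a region covered the lower end. At Fdft1 none covered either end, and whether its start was open could not be read. Among all genes open in both Wt libraries, 28.5% of 8681 were open in both DKO libraries, 24.8% in DKO replicate 2 alone, 3.50% in DKO replicate 1 alone and 43.2% in neither. The share open in neither was 30.3% among genes called higher per the authors' deposited table, 53.3% among those called lower and 40.4% among genes with a mean in the range of the 7. No gene of the 7 with a start region was in that class, though Srebf2 would be at a -log10 q of at least 5 and Insig1 with the 50% coverage. With 2 lists a group, an exact permutation test cannot go below a p of 1 in 3, so these counts carry no test.

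The peak at the start of Lss had a fold enrichment of 11.8 and 10.4 in Wt replicates 1 and 2, at the 99.0th and 96.8th percentile of each list. In DKO replicate 2 it was 4.26, at the 72.1st percentile of that list, and DKO replicate 1 had none. The Insig1 start peak was weaker within its lists, at 6.61 and 5.88 in Wt (77.8th and 68.5th percentile) and 3.85 in DKO replicate 2 (53.5th percentile). Srebf2 was similar, at 6.07 and 6.00 in Wt (71.7th and 70.9th percentile) and 3.51 in DKO replicate 2 (34.8th percentile). The genes open in all libraries ranked higher in DKO replicate 2, where Hmgcs1 stood at 6.12 (98.5th percentile), Idi1 at 5.18 (93.3rd) and Sqle at 5.03 (91.6th). In DKO replicate 1 the same genes stood at 4.34 (70.2nd percentile), 4.38 (73.7th) and 5.01 (88.8th). The DKO replicate 1 peak of the Hmgcs1 region began 145 bases past the start, so it did not itself cover the start. In Wt replicate 1 they stood at 10.4, 10.6 and 10.3, and in Wt replicate 2 at 9.15, 11.8 and 10.6, all between the 93.4th and 98.9th percentile. So the 2 regulators had lower-ranked start peaks than the enzymes Hmgcs1, Idi1, Sqle and Lss in each Wt list.

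**Figure D3:**
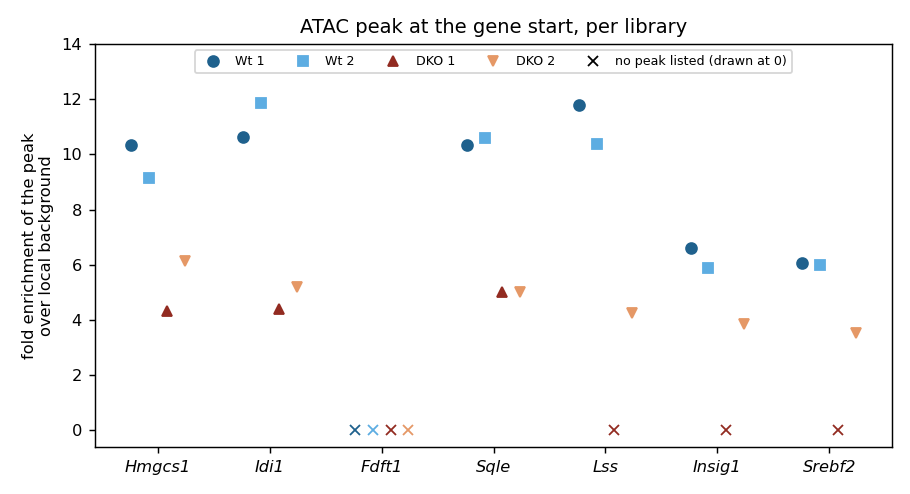
Fold enrichment over local background (y axis) of the ATAC peak at the start of each of the 7 genes (x axis), 1 symbol per library; crosses at 0 mark no peak listed. Starts of Sqle and Fdft1 were not given in the reference used, so the ends of their gene spans were searched instead. Both Wt libraries list a peak for every gene except Fdft1, whose start itself was not searched. DKO replicate 1 lists a peak for 3 genes. Levels are not comparable between lists.

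The promoters below were searched for letters through which this pathway is usually described. They are printed because their starts were open and because they set a gene that rose against others. RefSeq promoter windows matched 5 of the 7 genes (Hmgcs1, Idi1, Lss, Insig1 and Srebf2), and the bases before the start were searched on both strands for 5 motifs. These were TCACCCCA (the core of the sterol response element bound by SREBP), CCAAT (bound by NF-Y), GGGCGG (bound by Sp1), CACGTG (an E-box) and TTTAT (letters of Cdx sites). Matches are in capitals, and each sequence ends at the base before the start, on the plus strand of GRCm38.p6. Hmgcs1 is shown as a gene that rose and holds the sterol letters, Srebf2 as one that holds them and was not called, and Insig1 as the gene that rose most.
Hmgcs1, chr13:119690101-119690350: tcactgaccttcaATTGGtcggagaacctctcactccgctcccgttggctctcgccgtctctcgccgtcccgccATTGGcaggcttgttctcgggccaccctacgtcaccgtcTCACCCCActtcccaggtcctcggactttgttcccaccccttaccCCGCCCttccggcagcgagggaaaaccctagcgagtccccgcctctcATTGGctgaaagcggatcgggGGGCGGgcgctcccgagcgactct
Srebf2, chr15:82147019-82147268: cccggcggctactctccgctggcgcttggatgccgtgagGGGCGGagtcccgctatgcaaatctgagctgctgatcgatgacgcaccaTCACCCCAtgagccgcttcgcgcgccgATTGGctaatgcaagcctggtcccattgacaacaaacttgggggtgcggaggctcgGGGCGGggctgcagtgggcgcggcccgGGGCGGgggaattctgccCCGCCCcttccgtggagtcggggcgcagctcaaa
Insig1, chr5:28071162-28071411: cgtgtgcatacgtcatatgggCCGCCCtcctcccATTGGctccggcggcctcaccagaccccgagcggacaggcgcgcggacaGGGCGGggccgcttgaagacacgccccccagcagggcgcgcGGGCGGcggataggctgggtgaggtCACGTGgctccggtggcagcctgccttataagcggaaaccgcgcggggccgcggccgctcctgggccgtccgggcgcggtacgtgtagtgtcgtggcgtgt
The sterol letters occurred in Hmgcs1, 137 bases before the start, and in Srebf2, 162 bases before it, and were not in the windows of Idi1, Lss and Insig1. Over all 32851 promoter windows, 1.34% held them. CCAAT occurred in all 5 windows, 3 times in Hmgcs1, 2 times in Idi1 and 1 time in each of the others, against 33.8% of all windows. GGGCGG occurred in all 5 as well (32.7% of all windows), with 4 matches in Srebf2. CACGTG occurred in Insig1 alone of the 5 (6.02% of all windows). TTTAT occurred in none of the 5, against 37.3% of all windows. The window of Lss was 210 bases long and the other windows 250. The share of G and C in the 5 windows ran from 51.2% in Idi1 to 73.8% in Lss. The letters were chosen after the promoters were seen, so their counts beside the shares of all windows carry no test. Those windows were not matched to the 5 for open starts or for the share of G and C. Variants of the letters and bases farther from the start were not searched. A match is a description of the letters and no site of binding was shown. No Cdx2 peak overlapped any of the 5 promoters, as was so for all but 2.10% of the 12141 genes.

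With the start regions described above included, 24 ATAC regions lay in or within 10 kb of the 7 gene spans. Of these, 9 were open in both Wt libraries and in neither DKO library, 1 in both DKO libraries and in neither Wt library, 4 in all 4 libraries and 10 in other combinations. Over all 106432 regions of the series the shares were 23.8%, 4.98%, 3.54% and 67.7% in the same order. The regions open in all 4 libraries were the starts of Hmgcs1, Idi1 and Sqle and a region inside Fdft1. The starts of Lss, Insig1 and Srebf2 were among the other combinations. Without DKO replicate 1, the regions open in every remaining library numbered 8, and the share over all regions was 9.33%. The libraries listed 19 peaks each in Wt replicates 1 and 2 at these loci, 7 in DKO replicate 1 and 10 in DKO replicate 2. At Hmgcs1 (chromosome 13, 119690351 to 119708260, GRCm38), both Wt libraries held a peak in the last part of the gene (119706049 to 119706238) and another in the adjoining gene Nim1k, and no DKO library did. Sqle (chromosome 15, 59315092 to 59331193) had a pair of such regions outside the gene, in its neighbours Zfp572 and Washc5. At Insig1 (chromosome 5, 28071412 to 28078662) a region just inside the gene (28071914 to 28072130) was listed in both Wt libraries only. The single region listed in both DKO libraries and in neither Wt library lay 5922 bases past the upper end of Insig1, at 28084584 to 28084803, inside Gm35223. Its peaks had a fold enrichment of 5.60 in DKO replicate 1 and 3.06 in DKO replicate 2. The latter stood at the 13.5th percentile of its list with a -log10 q of 2.66, and the region was not counted at a -log10 q of at least 5 or within 5 kb of the gene. Srebf2 (chromosome 15, 82147269 to 82205379) had 1 region listed in both Wt libraries and in neither DKO library, at 82147731 to 82147906, close behind its start. Idi1 (chromosome 13, 8885606 to 8892396) had none, and its only other region was listed in DKO replicate 1 alone.

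A Cdx2 peak lay within 10 kb of 2 of the 7 genes, Lss and Fdft1. Of 16370 measured genes with a RefSeq span, 18.1% had a Cdx2 peak as near. With 5 kb in place of 10 kb, or with peaks of a -log10 q of at least 5, the same 2 genes were counted (15.0% and 13.8% of all), and within 50 kb 4 of the 7 were (35.6%). Cdx2 is a homeobox factor that maintains intestinal identity, and its list here comes from 1 library without a replicate. Lss (chromosome 10, 76531565 to 76557139) had 2 Cdx2 peaks. The stronger, at 76525211 to 76525502, lay 6063 bases before the gene span and outside any annotated gene, with a fold enrichment of 11.3 (-log10 q of 24.0), rank 125 of 5100 peaks. It overlapped no ATAC region of any library, and the nearest lay 5628 bases away. The other, at 76537694 to 76538004, lay inside the Lss span with a fold enrichment of 9.50 (-log10 q of 18.7), rank 317. It overlapped by 261 bases an ATAC region, 76537535 to 76537954, that both Wt libraries listed (fold enrichment 6.09 and 7.42) and neither DKO library did. Lss was higher in DKO per the authors' deposited table, as given above, so at this gene a Cdx2-bound region absent from the DKO lists stood beside a higher RNA level.

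Fdft1 (chromosome 14, 63145150 to 63181687) had 1 Cdx2 peak, inside the gene at 63172451 to 63172681, with a fold enrichment of 6.66 (-log10 q of 11.2), rank 1390. It overlapped by 165 bases the region 63172517 to 63172777, which was again listed in both Wt libraries (6.11 and 6.98) and in neither DKO library. Of all 5100 Cdx2 peaks, 30.2% overlapped a region of this class, and 54.2% overlapped no ATAC region. No region covered either end of the Fdft1 span, and the nearest to its upper end, 3380 bases inside, was listed in both Wt libraries (7.81 and 7.40) and DKO replicate 2 (3.83). Hmgcs1, Idi1 and Insig1 had no Cdx2 peak within 50 kb. Within that distance Sqle had 1 at 59291363 to 59291607, 23485 bases from the gene in the non-coding gene Gm36617, with a fold enrichment of 4.66 (rank 4140). Srebf2 had 1 at 82119120 to 82119441, 27828 bases away inside the gene Mei1, with a fold enrichment of 12.4 (rank 67). Neither of these overlapped an ATAC region. Whether any of these peaks acts on the gene nearest to it was not tested.

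**Figure D4:**
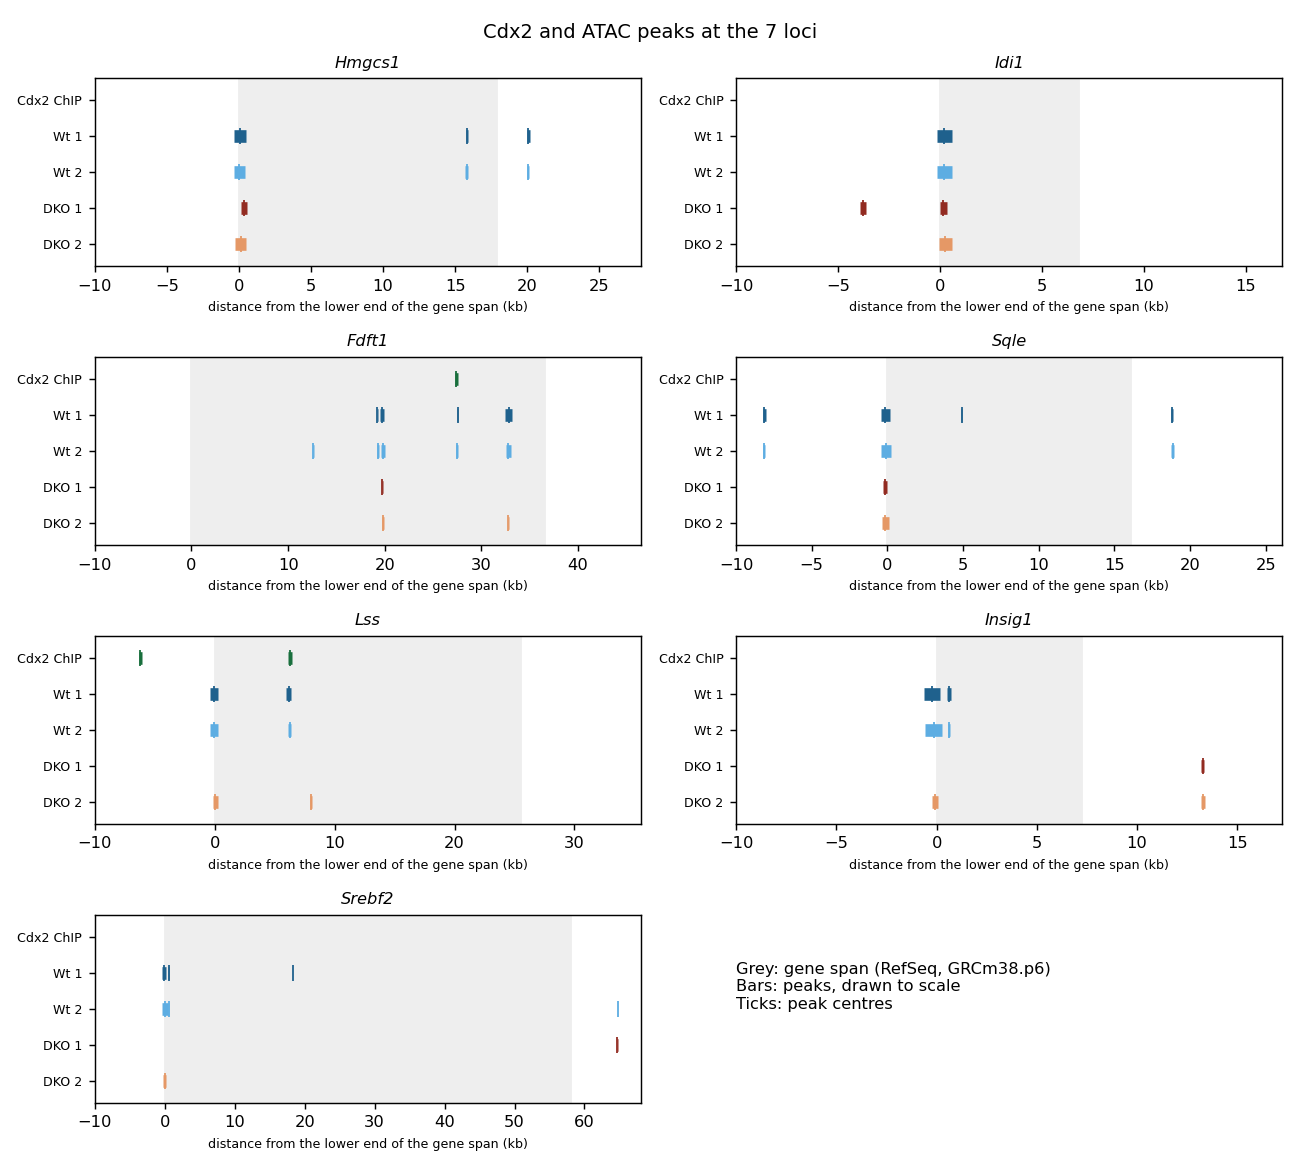
Peaks of the Cdx2 ChIP library and of the 4 ATAC libraries (rows) by distance in kb from the lower end of each gene span (x axis, drawn to scale), with the span in grey. Cdx2 peaks appear at Lss and Fdft1, and the 1 inside each gene lies over a peak of both Wt libraries and of no DKO library.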

How the data were processed

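The members, lists and tests were chosen with earlier results of these data known. The gene table held, per the file headers, each gene's mean normalized count (a signal that the authors scaled between libraries), a log2 fold change of DKO over Wt with its SE, and p-values. Readjusting the deposited p-values by Benjamini-Hochberg returned the deposited adjusted p in all 17511 rows. Fold over SE returned the deposited p in 1751 rows (within 0.01 in log10), so folds appear shrunken, and 95% intervals (1.96 SE) are approximate. The estimated counts per transcript, deposited as Salmon output with TPM values per the file headers, gave library totals only. Replicate libraries differed beyond sampling noise (chi-square over degrees of freedom 42.9 in DKO, 28.2 in Wt). Deposited peak lists gave the fold enrichment ratio and -log10 q per peak and were called per library, per the file headers. The submitters' processing notes list, with no role for each, Salmon 1.3.0, DESeq2, MACS2, Bowtie2, BWA and fastp, and GRCm38 and mm10 as builds. Tool settings and the control set against the ChIP library for peak calling are not stated in the sources used here.

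The test was that of the deposited table, presumably by DESeq2 as the notes name it, with no gene-level fit of counts. Gene spans and promoters came from RefSeq (GRCm38.p6, the assembly of mm10), and 93.5% of rows had a span. Peaks on assembled chromosomes were compared with an overlap of 1 bp (Python 3.11.15, pandas 2.3.3, numpy 2.4.6). Region building and p adjustment were tested on simulated data. Some genes of the pathway lists are not reported here and enter no count of those lists. Motif letters were chosen after the promoters were seen. The text names all 7 genes and, per list, up to 4 called genes with the largest change and a mean of 50 or more, and members of counts of 5 or fewer. Alternatives were a mean of at least 50, a threshold of 0.01, a 2-fold minimum, centring, windows of 5 and 50 kb, -log10 q of at least 5, peaks covering at least 50% of a region, and leaving out each ATAC library. Likeness between genes over libraries was not computed, as it needs levels per gene and library.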

Additional observations from a re-analysis of the deposited data

How the results depend on the processing

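No paired analysis was possible because gene-level results come from the authors' table, and the estimated counts carry transcript identifiers that no file used here pairs with genes. For the same reason the planned edgeR fits were not run and no RNA library could be left out. Of the 7 genes, those called higher numbered 2 (Insig1 and Hmgcs1) with a 2-fold minimum, and kept within 1.5 times of 5 under the other rules. Centring on the median of all rows changed no direction among the 7. In the 42-gene pathway list a threshold of 0.01 left 2 lower, and a 2-fold minimum left 9 higher and 1 lower. Of all rows, 13.0% were lower at 0.01, and 11.0% were higher and 13.2% lower with the 2-fold minimum. With 50 kb windows, genes with a Cdx2 peak numbered 4 of 7, and regions listed only in both Wt, only in both DKO and in other combinations numbered 16, 2 and 50. The region listed only in both DKO libraries was gone (0) with 5 kb windows and with -log10 q of at least 5. Regions in all 4 libraries numbered 1 at that q and 0 where peaks had to cover at least 50% of the region. Leaving out 1 ATAC library gave 9 to 13 regions listed only in Wt, 1 to 2 only in DKO, 4 to 8 in all and 4 to 7 in other combinations, where the shares over all regions of the series ran from 29.5 to 45.2%, 5.90 to 33.6%, 4.42 to 9.33% and 32.3 to 47.2%. The larger number in all libraries, 8, came without DKO replicate 1. Depth of the ATAC and ChIP libraries is unknown, so a peak not listed is not shown to be closed chromatin.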

Other observations

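Fatty acid synthesis genes, next to the cholesterol pathway, were called in both directions. Of 12 measured fatty acid synthesis genes that SREBP-1 is known to drive, 3 were called higher per the authors' deposited table and 4 lower, with a median log2 fold change of -0.01. The shares over all rows were 18.5% higher and 18.3% lower, and 25.5% and 20.2% among rows with a mean of at least 50 (p readjusted). These counts were not tested against the shares. Me1, the malic enzyme that supplies NADPH, was at 1.85 (SE 0.32), Gpam, the first acyltransferase of glycerolipid synthesis, at 1.64 (SE 0.28) and the desaturase Fads1 at 0.84 (SE 0.26) per the authors' deposited table. Fasn, the fatty acid synthase, was at -1.47 (SE 0.19) per the authors' deposited table, with Acaca at -0.58 (SE 0.23) and Fads2 at -0.60 (SE 0.27). Thrsp was the remaining lower gene per the authors' deposited table, at -3.60 (SE 2.17), with a mean of only 9.52 normalized counts. Of 9 measured genes of sterol efflux and storage, 1 was called higher per the authors' deposited table and 0 lower, beside the same shares. The higher one was Soat2, the enzyme that esterifies cholesterol in intestinal cells, at 2.74 (SE 0.60, BH-adjusted p = 5.71e-06) and a mean of 127 per the authors' deposited table. The sterol exporters Abca1, Abcg5 and Abcg8, named after their values were seen, were not called per the authors' deposited table (0.29, 0.67 and 0.41).

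Among the 35 other genes of the cholesterol lists, 10 had a Cdx2 peak within 10 kb, against 18.1% of all measured genes. A RefSeq start was given for 29 of them, of which 23 were open in both Wt libraries. Of those 23, 10 were open in both DKO libraries, 7 in DKO replicate 2 alone, 0 in DKO replicate 1 alone and 6 in neither, against 28.5%, 24.8%, 3.50% and 43.2% of all genes open in both Wt libraries. Those open in neither were Mvk, Mvd, Tm7sf2, Dhcr7, Srebf1 and Mbtps1, named after their values were seen.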
